A study of Homo sapiens with 70 samples.

Results

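The nuclear genes for subunits of respiratory chain complexes I to III were followed through the 3 gene count tables of the series. They were taken by name, as every gene whose symbol is NDUFA, NDUFB, NDUFC, NDUFS or NDUFV followed by a number, together with SDHA, SDHB, SDHC, SDHD, UQCRB, UQCRC1, UQCRC2, UQCRFS1, UQCRH and UQCRQ. This gave 47 of the 44503 genes counted: 7 subunits of the catalytic core of complex I, 13 NDUFA, 11 NDUFB and 6 other accessory subunits of complex I, 4 subunits of complex II and 6 of complex III.

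Gene expression was measured by RNA-seq in IMR90, a strain of human lung fibroblasts, and in the carcinoma line H1299, which derives from a human non-small cell lung tumour. All IMR90 groups, controls included, carried pLNCX2 ER:HRAS G12V, an oncogenic HRAS fused to the hormone-binding domain of the oestrogen receptor, which 4-hydroxytamoxifen (4OHT) switches on. In the HMGA1 experiment, growing cells (Grow) and cells in oncogene-induced senescence (OIS) carried the empty pMSCV miR vector or a short hairpin RNA against the chromatin protein HMGA1 (Grow-shA1, OIS-shA1), with 8 libraries in each of the 4 groups. OIS cells had received 100 nM 4OHT for 6 days, and Grow cells are labelled with no treatment. In a second experiment, with 5 libraries per group, growing cells with empty pSuper and pMSCV miR vectors (Grow-v-v) were compared with cells after 6 days of 4OHT that carried both empty vectors (OIS-v-v), a hairpin against the transcription factor CEBPB in pSuper (OIS-shCEBPB), a hairpin against p53 in pMSCV miR (OIS-shp53) or both (OIS-shCEBPB-shp53). H1299 cells carried the pMSCV miR vector (7 libraries) or the HMGA1 hairpin (H1299-shA1, 6 libraries) and had no RAS transgene and no 4OHT. Each knock-down rests on 1 hairpin per target. The paper describes the libraries as biological replicates but does not say whether each came from a separate culture. The p-values therefore measure the spread between these libraries, part of which may be technical.

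Complex I (NADH:ubiquinone oxidoreductase) takes electrons from NADH through a flavin and a chain of iron-sulfur clusters in its peripheral arm and pumps protons through its membrane arm. Its core subunits carry the redox centres, and the accessory NDUFA, NDUFB, NDUFC and remaining NDUFS and NDUFV subunits surround them and are needed for assembly and stability. Complex II is succinate dehydrogenase, also an enzyme of the tricarboxylic acid (TCA) cycle, and complex III passes electrons from ubiquinol to cytochrome c. Subunits encoded by mitochondrial DNA were not analysed here.

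Libraries held 1903607 to 22136571 counts in the HMGA1 experiment, where OIS replicate 4 was the shallowest, 14544053 to 24890797 in the CEBPB and p53 experiment and 17747670 to 23649765 in H1299. The knocked-down genes HMGA1 and CEBPB followed their labels. HMGA1 fell from a mean of 481.7 to 34.65 CPM (counts scaled to library size) in Grow-shA1, from 732.8 to 59.6 CPM in OIS-shA1 and from 1888 to 379.3 CPM in H1299-shA1. CEBPB fell from 295.3 CPM in OIS-v-v to 35.48 CPM in OIS-shCEBPB. The 6 fibroblast markers (COL1A1, COL1A2, COL3A1, PDGFRB, THY1 and DCN) were all present in Grow, with a summed level of 34650 to 43150 CPM, while CDH5, KDR, PTPRC and CD3E were under 1 CPM. Of the other lists in Grow, the epithelial markers summed to 71.5 to 94.4 CPM, with KRT8, KRT18 and KRT19 present, and the leukocyte markers to 15.75 to 22.68 CPM, with CD68 as the 1 gene over 1 CPM. H1299 held 814.1 to 1138 CPM of epithelial markers, from KRT8 and KRT18 with CDH1, KRT19 and EPCAM under 1 CPM, at most 2.395 CPM of the fibroblast markers and 38.72 to 63.41 CPM of the leukocyte markers. In the CEBPB and p53 experiment, replicates 1 to 3 and replicates 4 and 5 separated on the first axis of the deviations from the group means, which held 44.7% of their variance, and Grow-v-v replicate 5 was the highest of its group for 40 of the 47 subunits. The labels give no date or run, so values within replicates 1 to 3 and within replicates 4 and 5 are given beside the pooled ones.

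The subunit genes took a median of 0.206% of the counts of a library in Grow, 0.253% in OIS and 0.399% in H1299. Their summed level was 2234 ± 65.0 CPM in Grow (SD, n = 8), 2325 ± 57.3 in OIS (SD, n = 8), 2723 ± 317 in Grow-v-v (SD, n = 5), 2877 ± 118 in OIS-v-v (SD, n = 5) and 4009 ± 93.8 in H1299 (SD, n = 7). The 3 tables were normalised separately, so these sums are set side by side without a test. In bulk RNA, fewer cells that express a gene and less RNA per cell cannot be told apart.

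Levels between genes are compared as CPM per kilobase of exon length. In Grow the highest was NDUFS5, an accessory subunit of complex I on the intermembrane space side, at 216.5 ± 14.4 CPM per kilobase (SD, n = 8). UQCRC1, a core protein of complex III, followed at 61.4 ± 1.62 and NDUFB7 at 60.7 ± 5.51 CPM per kilobase, and these 2 did not differ beyond their spread. NDUFV2 and NDUFA7 were lowest, at 0.0774 and 0.153 CPM per kilobase, followed by NDUFA13 at 1.69 CPM per kilobase. In these low genes the counting itself is a limit. In the HMGA1 experiment and H1299, counts were assigned without strand and reads over more than 1 gene were dropped, and 32.6% of the exon bases of NDUFV2, 473 of the 1575 of NDUFA7 and 35.9% of those of NDUFA13 overlap another gene. NDUFV2 and NDUFA7 had 0 to 13 counts per library in the HMGA1 experiment and did not enter its tests, and NDUFA7 did not enter those of the CEBPB and p53 experiment. NDUFS5 was also highest in Grow-v-v, at 259.3 CPM per kilobase, and in H1299, at 202.9 ± 13.3 (SD, n = 7), where NDUFB7 at 189.7 ± 8.44 (SD, n = 7) lay within the spread of the first place.

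**Figure D1:**
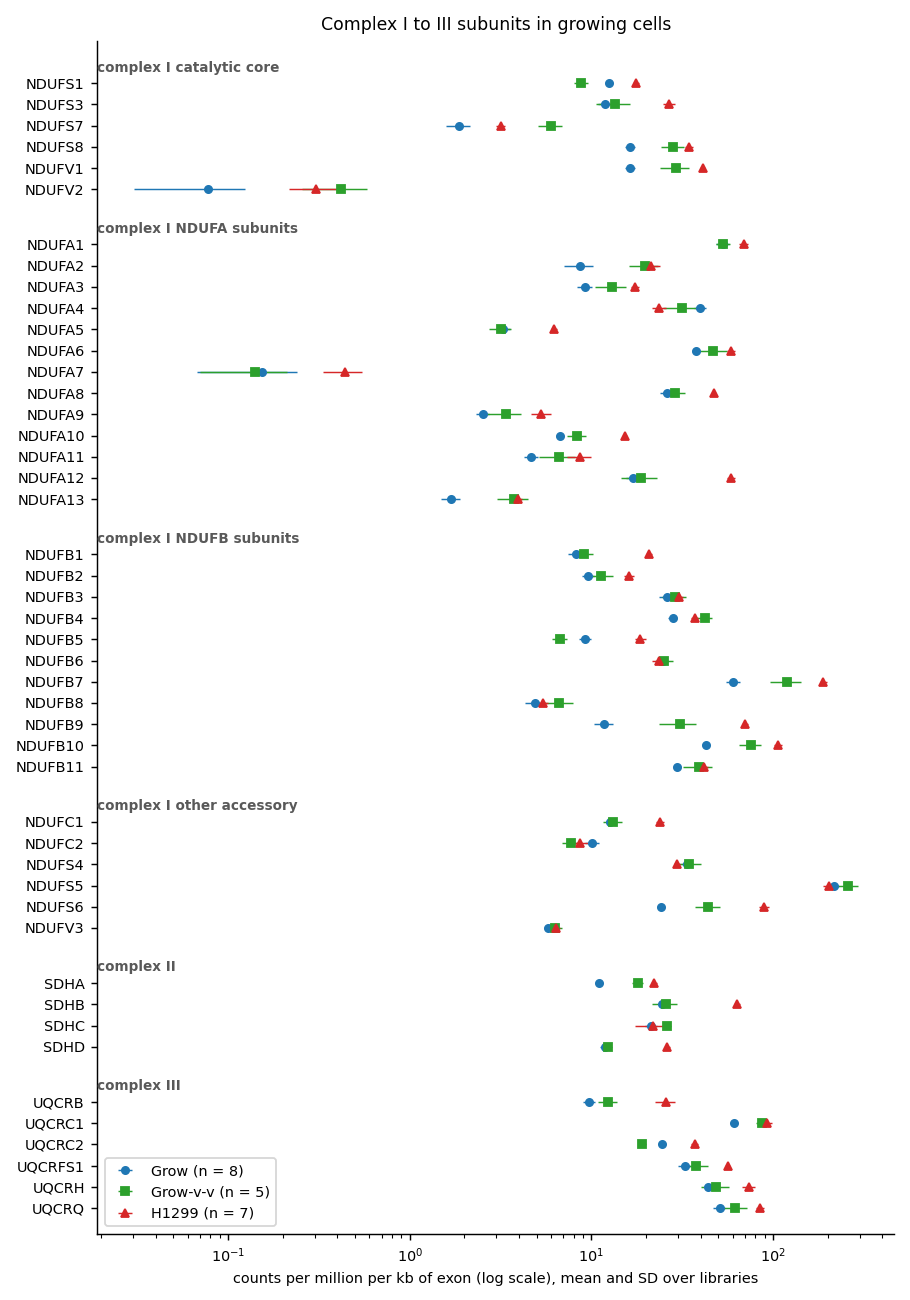
Level of 46 of the subunit genes in CPM per kilobase of exon length (log axis) in Grow (n = 8), Grow-v-v (n = 5) and H1299 (n = 7), by group of subunits; points are means and bars are SD. NDUFS5 stands highest in all 3, and NDUFV2 and NDUFA7 lie lowest in Grow.

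Groups with RAS induced were then compared with growing groups. No group received 4OHT without ER:HRAS, so RAS, the drug and the time under treatment cannot be told apart in any of these comparisons. In the HMGA1 experiment they split: of the 45 subunits tested, 18 were up-regulated and 8 (17.8%) down-regulated in OIS against Grow, by edgeR's quasi-likelihood test at a Benjamini-Hochberg adjusted p under 0.05. Among all 13304 genes tested, 38.8% were called higher and 35.9% lower, so the share of subunits that rose was close to that of all genes, and the share that fell was smaller. The changes were small: the median size of the log2 fold change was 0.16 over the subunits and 0.41 over all genes, and 4 subunits passed both the test and a 1.5-fold limit, as did 36.5% of all genes. The median log2 fold change was 0.06 over the subunits and 0.03 over all genes. The balance depended on the scaling. When TMM factors were left out and counts were scaled by library size alone, 30 subunits were called higher and 3 lower. Of all 13304 genes, 6963 were then called higher and 3561 lower, and their median moved by 0.19.

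The 4 subunits past 1.5-fold were NDUFB9, NDUFA8, SDHB and NDUFA1. NDUFB9, an accessory subunit of the membrane arm (hg19 chr8:125551344-125580751), had the largest rise. It lay between 22.85 and 34.65 CPM in the 8 Grow libraries (median 29.87) and between 52.6 and 66.26 CPM in the 8 OIS libraries (median 54.5). All OIS libraries lay above all Grow libraries, as they did for 2529 of the 13304 genes tested. The log2 fold change was 0.96 (SE 0.066, adjusted p = 1.47e-13 by edgeR). Since 20.9% of its exon bases overlap MTSS1 or TATDN1 on the other strand, reads there were not counted.

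NDUFA8, a membrane arm subunit on the intermembrane space side (hg19 chr9:124894745-124922098), had 30.28 to 39.23 CPM in Grow (median 34.99) and 49.37 to 59.38 CPM in OIS (median 53.55), again without overlap. Its log2 fold change was 0.65 (SE 0.057, adjusted p = 3.02e-11 by edgeR). SDHB, the iron-sulfur subunit of complex II (hg19 chr1:17345217-17380665), rose from 58.02 to 63.6 CPM in Grow (median 60.26) to 86.76 to 94.07 CPM in OIS (median 90.74), by 0.61 on the log2 scale (SE 0.0388, adjusted p = 2.31e-14 by edgeR). The other subunits of complex II were not called: log2 fold changes were 0.04 for the flavoprotein SDHA (approximate 95% interval from the SE, -0.05 to 0.13), -0.04 for SDHC (-0.17 to 0.08) and -0.02 for SDHD (-0.17 to 0.13), the last 2 being the membrane anchors. Of the complex II genes, a call in OIS was therefore made for SDHB alone, whereas with library sizes alone all 4 were called higher.

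Among the subunits that fell, NDUFA1, a small membrane arm subunit required for assembly of complex I (hg19 chrX:119005450-119010625), changed most. Its level was 36.12 to 45.33 CPM in Grow (median 41.35) and 23.91 to 39.57 CPM in OIS (median 25.88). OIS replicate 4 was the single OIS library inside the Grow range, and the log2 fold change was -0.59 (SE 0.069, adjusted p = 9.62e-09 by edgeR), with 44.6% of exon bases overlapped by RNF113A on the other strand. NDUFA4 (hg19 chr7:10971578-10979883), first described in complex I and now regarded as a subunit of complex IV, had 114.8 to 146.0 CPM in Grow (median 124.6) and 89.69 to 115.4 CPM in OIS (median 91.28), a log2 fold change of -0.40 (SE 0.0534, adjusted p = 1.09e-07 by edgeR). All but 1 OIS library, again replicate 4, lay below the Grow range. NDUFS4, an accessory subunit of the peripheral arm in which mutations cause Leigh syndrome (hg19 chr5:52856463-52979168), fell from 34.47 to 43.66 CPM (median 40.53) to 26.52 to 34.27 CPM (median 30.18), a log2 fold change of -0.37 (SE 0.0609, adjusted p = 3.27e-06 by edgeR), and the groups did not overlap. Of the 13304 genes tested, 3283 fell without overlap. Without OIS replicate 4, 18 subunits were called higher and 9 lower, and the share of all genes in that fit is not given here. NDUFA1 (-0.63), NDUFA4 (-0.43) and NDUFS4 (-0.39) kept their calls, as did NDUFB9, NDUFA8 and SDHB.

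**Figure D2:**
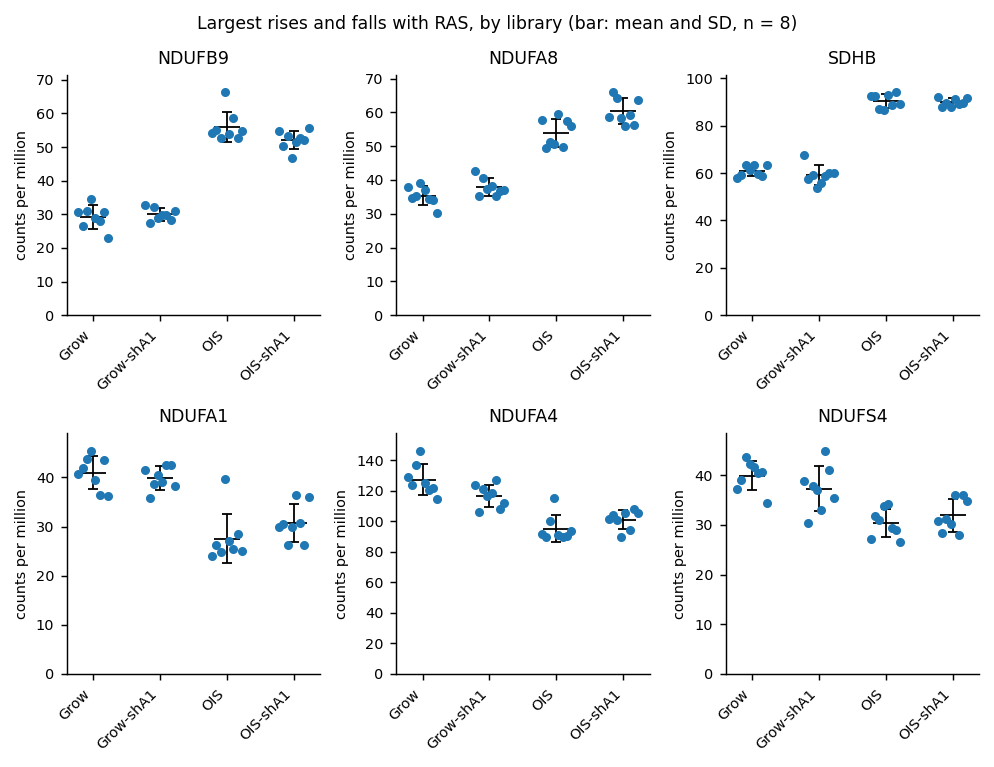
Level in CPM of NDUFB9, NDUFA8, SDHB, NDUFA1, NDUFA4 and NDUFS4 in each library of the growing and OIS groups, with and without the HMGA1 hairpin; points are libraries, and the bar is the mean with SD (n = 8). NDUFB9, NDUFA8 and SDHB lie higher, and NDUFA1, NDUFA4 and NDUFS4 lower, in OIS than in Grow, with OIS replicate 4 high for NDUFA1 and NDUFA4.

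By group of subunits, 4 of the 6 core subunits of complex I that were tested rose in OIS and none fell, among them NDUFS3 (log2 fold change 0.47), NDUFS8 (0.17) and NDUFS1 (0.11) of the peripheral arm. NDUFV1, which binds NADH, was not called. Of 12 NDUFA subunits, NDUFA8 and NDUFA3 (0.30) rose and NDUFA1, NDUFA4 and NDUFA12 (-0.33) fell. Of 11 NDUFB subunits, 5 rose, among them NDUFB10 (0.38), and 3 fell, namely NDUFB2 (-0.29), NDUFB7 (-0.23) and NDUFB11 (-0.22). Of the 6 other accessory subunits, 3 rose, with NDUFV3 first (0.37), and NDUFS4 fell. In complex III, UQCRH, the hinge protein (0.42), UQCRQ (0.29) and UQCRC2 (0.13) rose and UQCRC1 fell (-0.17). With an offset for gene length in the fit, 13 of the 45 subunits were called higher and 9 lower, where 5151 and 4854 of all 13304 genes were.

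The other genes of oxidative metabolism were read from lists. Of 23 assembly factors, 14 rose in OIS and none fell, where 38.8% and 35.9% of all genes were called higher and lower. LYRM7, a chaperone for the Rieske protein of complex III, had a log2 fold change of 0.96 (SE 0.0941). NDUFAF4, a complex I assembly factor, had 0.80 (SE 0.0819). Other scaling was not tried for these lists. Of 11 complex IV genes 5 rose and 3 fell (COX5A, 0.42), of 15 ATP synthase genes 4 rose and 1 fell (ATP5MC1, 0.41), and of 13 TCA cycle genes 5 rose and 4 fell (IDH3A, 0.90, and SUCLG2, -0.59). Among 12 regulators of mitochondrial biogenesis, 9 rose and 2 fell, NRF1 and GABPB1. The largest changes were in PPARGC1B and PPARGC1A, transcriptional co-activators of mitochondrial genes. PPARGC1B had 0.0548 to 0.8777 CPM in Grow (1 to 15 counts) and 5.678 to 8.159 CPM in OIS, and PPARGC1A had 0.1635 to 0.7021 CPM (3 to 12 counts) and 1.43 to 2.718 CPM. All 6 fibroblast markers fell in the same comparison, from the sum given above to 3315 to 4531 CPM. Whether this had a part in the changes of the subunit genes was not tested.

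In cells with the HMGA1 hairpin, OIS-shA1 against Grow-shA1, 18 of 45 subunits were again called higher and 8 lower, where 37.1% and 36% of all genes were. This comparison shares no library with OIS against Grow. NDUFB9 (log2 fold change 0.82, adjusted p = 2.23e-14 by edgeR), NDUFA8 (0.69, 1.81e-12) and SDHB (0.62, 3.02e-13) had the largest rises, without overlap between the groups, and these 3 passed the 1.5-fold limit, as did 34.4% of all genes. Of the 13239 genes tested, 2614 rose without overlap. NDUFA1 (-0.36, 1.84e-05), NDUFA12 (-0.35, 7.6e-05) and NDUFB7 (-0.25, 0.00818) had the largest falls. NDUFA12, an accessory subunit of the peripheral arm, had 22.73 to 31.38 CPM in Grow-shA1 (median 28.34) and 17.14 to 24.22 CPM in OIS-shA1 (median 22.03), with 5 of 8 libraries below the Grow-shA1 range. SDHC, a membrane anchor of complex II, was called higher here as well (log2 fold change 0.16, adjusted p = 0.0142 by edgeR). With library sizes alone, 25 subunits were called higher and 4 lower, where 5836 and 4063 of all 13239 genes were. Of the pathway lists, 13 of 23 assembly factors and 10 of 15 ATP synthase genes rose, with 0 and 1 falling.

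The CEBPB and p53 experiment gave a separate RAS comparison, OIS-v-v against Grow-v-v. Of 46 subunits tested, 11 were up-regulated and 2 down-regulated, where 22.7% and 23.2% of all genes were. UQCRH (hg19 chr1:46769303-46782448) had 66.49, 59.08, 66.06, 63.36 and 89.81 CPM in Grow-v-v replicates 1 to 5 and 112.3, 99.88, 107.7, 85.56 and 91.13 CPM in OIS-v-v. Grow-v-v replicate 5 stood apart from its group and inside the OIS-v-v range, and the log2 fold change was 0.54 (SE 0.12, adjusted p = 0.00274 by edgeR). NDUFB9 had 74.06, 62.64, 65.02, 73.79 and 106.0 CPM in Grow-v-v and 109.2, 96.16, 106.5, 109.9 and 112.6 CPM in OIS-v-v, a log2 fold change of 0.50 (adjusted p = 0.00776 by edgeR). SDHB had 58.41, 56.47, 58.29, 63.56 and 80.61 CPM and then 80.22, 80.45, 80.75, 84.65 and 81.52 CPM, a log2 fold change of 0.37 (adjusted p = 0.00887 by edgeR). For both genes Grow-v-v replicate 5 lay within the range of OIS-v-v, and the other 4 Grow-v-v libraries lay below it.

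NDUFV2, the core subunit of complex I with a binuclear iron-sulfur cluster, had the largest fitted log2 fold change, 1.83 (adjusted p = 1.13e-04 by edgeR), at very low levels. It had 0.7161, 1.663, 1.048, 0.8132 and 0.7664 CPM in Grow-v-v and 4.685, 3.662, 4.189, 2.486 and 2.823 CPM in OIS-v-v, without overlap, as for 2223 of 13344 genes. Of its exon bases 32.6% overlap another gene, and how reads there were counted in this table is not given in the sources used here. It was the 1 subunit past the 1.5-fold limit, which 27.4% of all genes passed. NDUFA12 (hg19 chr12:95290831-95397546) and NDUFS4 fell. NDUFA12 had 32.12, 29.75, 30.83, 31.1 and 47.59 CPM in Grow-v-v and 24.89, 22.8, 23.27, 30.49 and 25.23 CPM in OIS-v-v (log2 fold change -0.42, adjusted p = 0.0265 by edgeR), and the call was lost without OIS-v-v replicate 1, 2 or 3 (adjusted p = 0.0551 to 0.0652). NDUFS4 had 39.69, 32.95, 40.92, 37.81 and 51.9 CPM and then 33.02, 33.67, 34.5, 29.4 and 27.93 CPM (log2 fold change -0.35, adjusted p = 0.0305 by edgeR). NDUFS4 was no longer called with the replicate number as a block (adjusted p = 0.0567), or without Grow-v-v replicate 3 or OIS-v-v replicate 1, 4 or 5 (adjusted p = 0.051 to 0.0647).

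The count of calls in this comparison rested on a few libraries. Without Grow-v-v replicate 5, 18 subunits were called higher and 2 lower, and without OIS-v-v replicate 1, 8 and 0. The share of all genes called in these fits is not given here, so the shift is not shown to be particular to the subunits. The log2 fold changes without Grow-v-v replicate 5 were 0.64 for UQCRH, 0.64 for NDUFB9, 1.75 for NDUFV2, -0.28 for NDUFA12 and -0.25 for NDUFS4, all called. Within replicates 1 to 3, 30 were called higher and 2 lower, where 66.8% of all genes were called in either direction, and within replicates 4 and 5, 2 and 6, where 40.5% were. Of the 46 subunits, 21 had opposite signs in the 2 subsets. For UQCRH the log2 fold change was 0.74 within replicates 1 to 3 and 0.21 within replicates 4 and 5, for NDUFB9 0.63 and 0.31, for SDHB 0.48 and 0.21, for NDUFA12 -0.38 and -0.49 and for NDUFS4 -0.16 and -0.64. These 5 had the same direction in both subsets, with UQCRH, NDUFB9 and SDHB larger in the first and NDUFA12 and NDUFS4 in the second. Several were not called in 1 of the subsets. Within replicates 4 and 5 these were UQCRH (adjusted p = 0.336 by edgeR), NDUFB9 (0.148) and NDUFA12 (0.0511). Within replicates 1 to 3 it was NDUFS4 (adjusted p = 0.065 by edgeR). NDUFA11, a membrane arm subunit chosen here after its values were seen, was called in opposite directions, with 0.25 within replicates 1 to 3 (adjusted p = 0.0237 by edgeR) and -0.74 within replicates 4 and 5 (adjusted p = 0.00909). NDUFA1 (0.18 and -0.27), NDUFA2 (0.35 and -0.28), NDUFB2 (0.21 and -0.29) and NDUFS7 (0.19 and -0.38), also chosen after the fact, were called higher within replicates 1 to 3 and were negative, not called, within replicates 4 and 5. NDUFA4, which fell in OIS, had a log2 fold change of 0.05 within replicates 1 to 3 (adjusted p = 0.483 by edgeR) and -0.58 within replicates 4 and 5 (adjusted p = 0.00943), and was not called in the pooled fit. The replicate block left 9 subunits called higher and 2 lower, where 49.7% of all genes were called.

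Of the pathway lists in OIS-v-v against Grow-v-v, 5 of 23 assembly factors rose and 1 fell (LYRM7, 0.54, and FOXRED1, -0.59), and 4 of 11 complex IV genes rose and none fell (COX7A2L, 0.51). None of 15 ATP synthase genes was called by edgeR, and 1 had an unadjusted p under 0.05. Of all genes, 22.7% were called higher and 23.2% lower in this comparison. Of 11 biogenesis regulators 4 rose and 1 fell. PPARGC1B had 0.0678 to 0.7672 CPM in Grow-v-v (1 to 15 counts) and 4.216 to 6.322 CPM in OIS-v-v. All 6 fibroblast markers fell here as well, from a sum of 31530 to 45570 CPM to 8200 to 15280 CPM, and their part in the values of the subunits was not tested.

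Set side by side, the 3 RAS comparisons, which share no library, gave the same sign for 37 of 45 subunits in each pairing. Pearson's r across these 45 genes was 0.911 between the vector and HMGA1 hairpin comparisons and 0.743 and 0.735 between each of them and the CEBPB and p53 experiment (Spearman's rho 0.851, 0.775 and 0.767), with genes not being independent replicates and with gene length and overlap shared by all 3. Of the 26 subunits called in OIS and the 26 called in OIS-shA1, 21 were called in both. Of the 13 called in OIS-v-v, 11 were also among the 26 called in OIS and 11 among the 26 called in OIS-shA1. All of these shared calls had the same direction. In the 3 comparisons 74.8%, 73.1% and 45.8% of all genes were called. How often other genes kept their sign or call across them was not examined, so the agreement is not shown to be particular to the subunits.

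Called higher in all 3 were 8 subunits, NDUFA3, NDUFA8, NDUFB5, NDUFB9, NDUFB10, SDHB, UQCRC2 and UQCRH, and called lower in all 3 were NDUFA12 and NDUFS4. With library sizes alone NDUFA12 was no longer called in OIS against Grow (log2 fold change -0.15, adjusted p = 0.0557 by edgeR), nor was NDUFS4 in OIS-shA1 against Grow-shA1 (-0.12, adjusted p = 0.132). No subunit was called in opposite directions in the 3 pooled fits. Within replicates 1 to 3 of OIS-v-v against Grow-v-v, however, NDUFA1 (0.18, adjusted p = 0.0315) and NDUFB2 (0.21, adjusted p = 0.0177) were called higher, and both were called lower in OIS against Grow. The 8 that rose come from complexes I, II and III, and the 2 that fell are both accessory subunits of the peripheral arm of complex I.

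**Figure D3:**
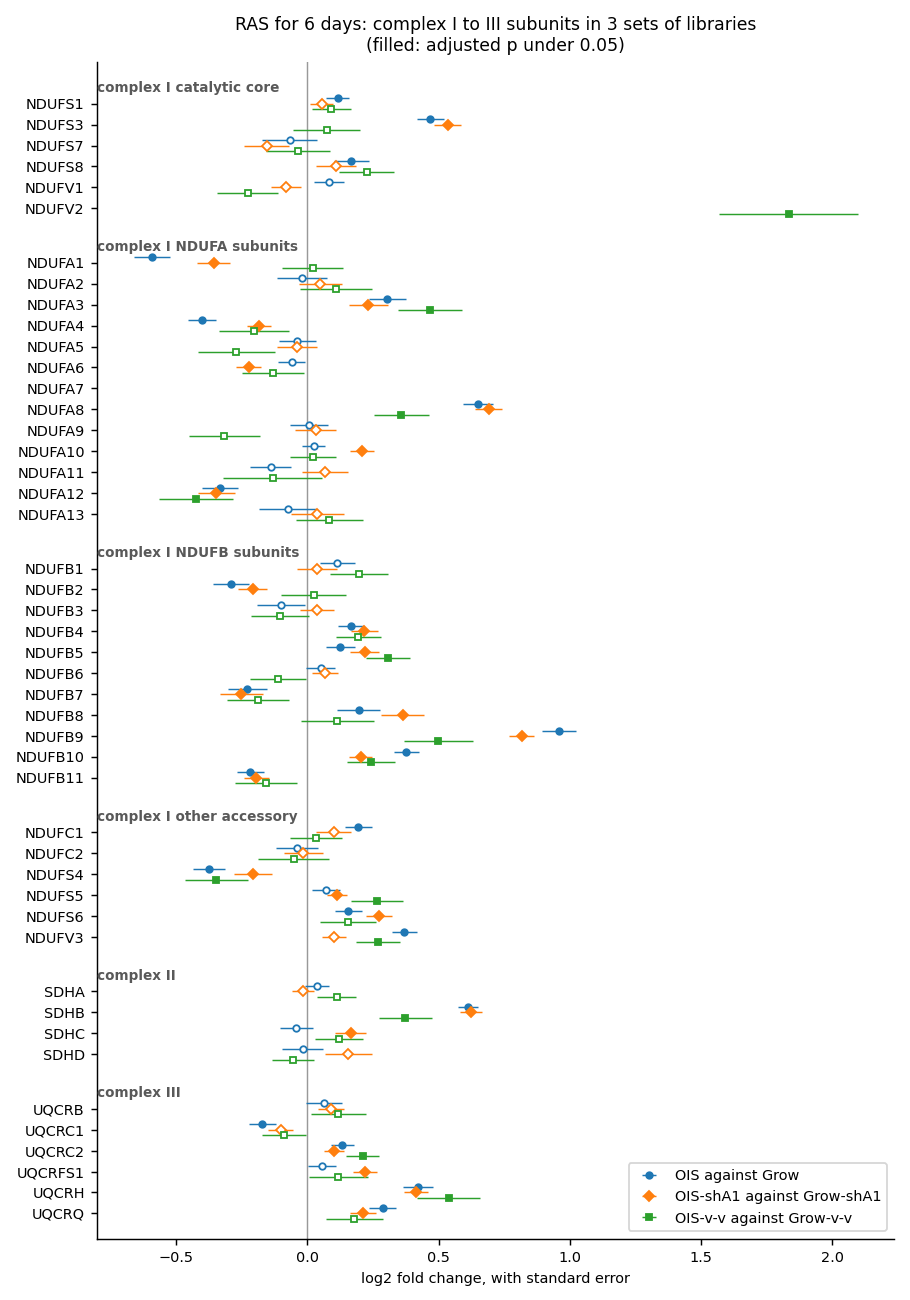
Log2 fold change with SE of the subunit genes in OIS against Grow, OIS-shA1 against Grow-shA1 and OIS-v-v against Grow-v-v; filled points have an adjusted p under 0.05. NDUFB9, NDUFA8, SDHB and UQCRH are filled to the right of 0 in all 3, and NDUFA12 and NDUFS4 to the left.

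Promoter sequences are shown for 6 of the subunits described above, 3 that rose and 3 that fell in OIS against Grow, as RefSeq gives them. They cover the 250 bases before and 50 after the start site, in GRCh38.p14, 5′ to 3′ along the gene's strand. Capitals mark letters of 3 short motifs searched on both strands: GCATGCGC of NRF1, CCGGAAG of ETS factors, the family of GABPA, and AAGATGGC of YY1, regulators of respiratory chain genes.
SDHB, chr1:17053983-17054282, minus strand: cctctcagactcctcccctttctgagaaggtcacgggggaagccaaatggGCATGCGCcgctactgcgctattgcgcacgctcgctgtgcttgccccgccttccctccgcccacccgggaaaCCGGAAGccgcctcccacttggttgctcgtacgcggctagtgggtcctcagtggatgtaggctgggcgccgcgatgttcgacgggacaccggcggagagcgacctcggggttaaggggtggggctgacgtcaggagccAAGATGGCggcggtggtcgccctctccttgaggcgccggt
NDUFA8, chr9:122159730-122160029, minus strand: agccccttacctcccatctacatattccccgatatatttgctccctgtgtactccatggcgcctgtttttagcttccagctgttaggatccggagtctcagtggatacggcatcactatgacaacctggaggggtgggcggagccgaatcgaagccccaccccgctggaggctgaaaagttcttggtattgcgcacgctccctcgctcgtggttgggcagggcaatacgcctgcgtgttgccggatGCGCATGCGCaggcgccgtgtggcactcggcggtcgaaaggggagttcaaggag
UQCRH, chr1:46303448-46303747, plus strand: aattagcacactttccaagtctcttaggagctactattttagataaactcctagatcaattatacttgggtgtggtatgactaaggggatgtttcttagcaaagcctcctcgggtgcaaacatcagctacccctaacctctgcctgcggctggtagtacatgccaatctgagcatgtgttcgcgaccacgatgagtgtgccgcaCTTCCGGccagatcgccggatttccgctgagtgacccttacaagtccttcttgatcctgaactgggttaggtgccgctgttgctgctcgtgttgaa
NDUFA1, chrX:119871582-119871881, plus strand: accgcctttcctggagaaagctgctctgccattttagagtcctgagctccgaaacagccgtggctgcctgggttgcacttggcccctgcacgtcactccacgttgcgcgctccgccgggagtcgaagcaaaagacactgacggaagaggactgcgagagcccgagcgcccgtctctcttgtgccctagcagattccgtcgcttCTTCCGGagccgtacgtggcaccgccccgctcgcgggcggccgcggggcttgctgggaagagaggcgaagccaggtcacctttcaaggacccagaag
NDUFS4, chr5:53560389-53560688, plus strand: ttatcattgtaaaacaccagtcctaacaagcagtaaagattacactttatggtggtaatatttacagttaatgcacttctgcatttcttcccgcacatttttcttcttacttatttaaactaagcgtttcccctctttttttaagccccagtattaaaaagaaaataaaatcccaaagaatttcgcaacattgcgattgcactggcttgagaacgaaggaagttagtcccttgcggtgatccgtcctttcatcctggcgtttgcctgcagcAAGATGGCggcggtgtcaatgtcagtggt
NDUFA12, chr12:95003648-95003947, minus strand: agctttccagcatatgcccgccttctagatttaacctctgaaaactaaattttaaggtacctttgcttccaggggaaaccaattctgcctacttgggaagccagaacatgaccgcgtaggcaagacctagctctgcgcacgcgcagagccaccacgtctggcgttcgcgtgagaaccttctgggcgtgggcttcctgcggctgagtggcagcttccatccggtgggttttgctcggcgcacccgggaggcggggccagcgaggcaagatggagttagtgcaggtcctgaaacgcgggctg
SDHB held all 3 motifs, NDUFA8 the NRF1 letters on both strands in overlapping positions, UQCRH and NDUFA1 the ETS letters on the minus strand and NDUFS4 the YY1 letters just after the start. NDUFA12, which fell in all 3 RAS comparisons, held none of them, as did 20 of the 39 subunits with a promoter. RefSeq gave a promoter for 39 of the 47 subunits. The NRF1 letters were in 17.9% of these 39 promoters and in 3.27% of 27305 promoters in all, the ETS letters in 23.1% and 10.7%, the YY1 letters in 20.5% and 3.03%, and any of them in 48.7% and 15.6%. A match describes the letters in the window and is no evidence of binding.

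Knock-down of HMGA1 was examined in growing and in OIS cells. In Grow-shA1 against Grow, 3 of 45 subunits were called higher and 1 lower, where 14.8% and 15.1% of all genes were. The median size of the log2 fold change was 0.06 over the subunits and 0.12 over all genes, and no subunit passed the 1.5-fold limit by edgeR, by DESeq2 or at an unadjusted p under 0.05, while 5.64% of all genes did by edgeR. NDUFB1, a membrane arm subunit, had 16.5 to 21.13 CPM in Grow (median 18.97) and 17.91 to 24.69 CPM in Grow-shA1 (median 22.05), a log2 fold change of 0.24 (adjusted p = 0.0102 by edgeR). NDUFV3, a small subunit of the NADH-binding module, had 32.49 to 39.01 CPM (median 37.31) and 38.94 to 45.6 CPM (median 43.42), a log2 fold change of 0.23 (adjusted p = 2.72e-04 by edgeR). The third was UQCRC2, a core protein of complex III (0.11, adjusted p = 0.0241). NDUFC1 fell, from 23.7 to 27.64 CPM (median 24.51) to 19.63 to 24.39 CPM (median 22.18), with a log2 fold change of -0.16 (adjusted p = 0.038 by edgeR). This call was lost with library sizes alone, with no filter on low counts and without any 1 of Grow replicates 1, 2, 3 and 5 and Grow-shA1 replicates 1, 2, 4 and 5 (adjusted p = 0.0545 to 0.0931), and that of UQCRC2 with no filter and without Grow replicate 7 or 8 (adjusted p = 0.0503 to 0.0764). With library sizes alone, 5 subunits were called higher and none lower, where 2424 and 1597 of all 13072 genes were. None of the SDH genes was called, with log2 fold changes of 0.09 for SDHA, -0.04 for SDHB, -0.00 for SDHC and -0.12 for SDHD.

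In OIS-shA1 against OIS, 6 of 45 subunits were called higher and 4 lower, where 18.8% and 17.1% of all genes were, and again none passed the 1.5-fold limit by edgeR, by DESeq2 or at an unadjusted p under 0.05, while 7.36% of all genes did by edgeR. SDHC (hg19 chr1:161284047-161332977) had 26.22 to 34.96 CPM in OIS (median 31.88) and 33.92 to 40.23 CPM in OIS-shA1 (median 36.45), a log2 fold change of 0.22 (SE 0.0619, adjusted p = 0.00677 by edgeR). Of the 8 OIS-shA1 libraries, 6 lay above all OIS libraries. NDUFA1 (0.21, adjusted p = 0.0367) and NDUFB5 (0.16, adjusted p = 0.0386) followed. The NDUFA1 call was lost with library sizes alone (adjusted p = 0.212), the length offset, the replicate block and without any 1 of OIS replicates 1, 2, 3, 5, 6 and 8 and OIS-shA1 replicates 5, 6 and 8 (adjusted p = 0.0524 to 0.0897). The NDUFB5 call was lost under the same 3 settings (adjusted p = 0.35, 0.0503 and 0.0749), with upper-quartile factors, with no filter on low counts and without any 1 of OIS replicates 5 to 8 and OIS-shA1 replicates 3, 7 and 8 (adjusted p = 0.0608 to 0.0936). NDUFA1 had 26.25 to 36.35 CPM in OIS-shA1 (median 30.14), within the OIS range, of which OIS replicate 4 was the highest library. NDUFC1 had 26.6 to 30.03 CPM in OIS (median 27.12) and 20.77 to 25.73 CPM in OIS-shA1 (median 22.89), without overlap, and its log2 fold change was -0.24 (adjusted p = 0.00139 by edgeR). Of the 13327 genes tested, 523 fell without overlap. NDUFB10 (-0.17, adjusted p = 0.0053) and the NADH-binding NDUFV1 (-0.15, adjusted p = 0.0494) also fell, with overlapping libraries, and the NDUFV1 call was lost under the replicate block (adjusted p = 0.144) and without any 1 of OIS replicates 1, 5, 7 and 8 and of the 8 OIS-shA1 replicates (adjusted p = 0.0551 to 0.108). The SDHC call was lost with library sizes alone (adjusted p = 0.0866). Without OIS replicate 4, the shallowest library, NDUFA1 (0.25, adjusted p = 0.00548 by edgeR), NDUFB5 (0.15, 0.0478) and NDUFV1 (-0.18, 0.00777) kept their calls. In that fit 10 subunits were called higher and 4 lower, and the share of all genes is not given here. With library sizes alone, 0 were called higher and 10 lower, where 1553 and 4037 of all 13327 genes were. Log2 fold changes of SDHA, SDHB and SDHD were 0.05, -0.01 and 0.07, none called.

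Among the pathway lists in OIS-shA1 against OIS, 4 of 11 complex IV genes rose and none fell (COX7A2L, 0.32, SE 0.0419, and COX6C, 0.26, SE 0.0504), 2 of 23 assembly factors rose and 4 fell (SDHAF4, 0.66, and BCS1L, -0.58), and of 12 biogenesis regulators none rose and 3 fell. PPARGC1B had 2.521 to 4.525 CPM in OIS-shA1 against the 5.678 to 8.159 CPM of OIS, without overlap (log2 fold change -0.90, SE 0.1175). Of all genes, 18.8% were called higher and 17.1% lower in OIS-shA1 against OIS. Fibroblast markers moved both ways, with 3 higher and 2 lower, and in Grow-shA1 against Grow 1 was higher and 5 lower. Their part in the values of the subunits was not tested.

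Whether the HMGA1 hairpin acted differently in growing and OIS cells was tested as an interaction in 1 fit over all 4 groups. Of 45 subunits 3 were called, where 23.6% of all genes were. NDUFA4 (0.23, SE 0.0709, adjusted p = 0.0145 by edgeR) and NDUFA10 (0.20, SE 0.0601, adjusted p = 0.013) had a more positive effect of the hairpin in OIS than in Grow, and NDUFV3 (-0.25, SE 0.06, adjusted p = 0.00146) a less positive one. NDUFA4 had medians of 124.6 CPM in Grow, 117.5 in Grow-shA1, 91.28 in OIS and 102.9 in OIS-shA1. NDUFA10, an accessory subunit of the membrane arm, had 51.86, 49.01, 52.24 and 56.77 CPM, and NDUFV3 had 37.31, 43.42, 46.27 and 45.55 CPM in the same order. SDHB had an interaction of 0.03 (95% interval -0.08 to 0.13), which bounds the difference between its RAS responses with and without the hairpin. With library sizes alone NDUFA4 (adjusted p = 0.23) and NDUFA10 (adjusted p = 0.291) were not called, none was called positive and 7 were called negative. Of all 13903 genes, 888 were then called positive and 3456 negative, and their median moved by -0.12.

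Knock-down of CEBPB and p53 was compared with OIS-v-v, whose libraries all 3 of the following comparisons share. In OIS-shCEBPB none of 46 subunits was called higher and 1 lower, where 9.09% and 8.0% of all genes were. At an unadjusted p under 0.05 there were 5 subunits, and DESeq2 called 1, where it called 19.8% of all genes. None passed the 1.5-fold limit by edgeR, by DESeq2 or at an unadjusted p under 0.05, in this comparison or in the next 2, while 7.21% of all genes did in OIS-shCEBPB, 1.76% in OIS-shp53 and 13.4% in OIS-shCEBPB-shp53 by edgeR. The call was NDUFB9, with 86.03, 78.6, 95.52, 96.22 and 90.39 CPM in OIS-shCEBPB replicates 1 to 5 beside the OIS-v-v values above. Of these libraries 4 lay below all OIS-v-v libraries, and the log2 fold change was -0.26 (adjusted p = 0.0146 by edgeR, and 5.08e-04 with the replicate block). NDUFB9 had log2 fold changes of -0.27 within replicates 1 to 3 and -0.27 within replicates 4 and 5. It was not called with library sizes alone (adjusted p = 0.0875) or in a fit of all groups (adjusted p = 0.0569). The replicate block called 7 subunits, 2 higher and 5 lower, where 31.9% of all genes were called in either direction. Within replicates 1 to 3, 8 were lower and none higher, where 32.6% were called, and within replicates 4 and 5, 2 were higher and 2 lower, where 24.6% were. With library sizes alone, 2 were called higher and none lower, where 1787 and 734 of all 13396 genes were.

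In OIS-shp53 none of 46 subunits was called higher and 2 lower, where 2.47% and 1.97% of all genes were. DESeq2 called 6, where it called 8.16% of all genes. At an unadjusted p under 0.05 there were 17, and the share of all genes at that limit is not given here. NDUFS5 (hg19 chr1:39491990-39500308) had 180.7, 168.2, 182.8, 169.8 and 150.5 CPM in OIS-v-v and 142.2, 136.8, 142.5, 138.0 and 153.6 CPM in OIS-shp53. Only replicate 5 overlapped the OIS-v-v values, and the log2 fold change was -0.26 (adjusted p = 0.0323 by edgeR). Within replicates 1 to 3 it was -0.34 and within replicates 4 and 5 -0.14. The pooled call was lost with no filter on low counts, with the length offset, in a fit of all groups and without any 1 of OIS-v-v replicates 1 to 3 and OIS-shp53 replicates 1 to 4 (adjusted p = 0.0586 to 0.0945). NDUFB10, a membrane arm subunit (hg19 chr16:2009509-2011976), had 96.64, 97.87, 94.19, 94.92 and 90.41 CPM in OIS-v-v and 83.53, 79.8, 81.53, 76.25 and 77.39 CPM in OIS-shp53, without overlap (log2 fold change -0.25, adjusted p = 0.0078 by edgeR). Of the 13378 genes tested, 450 fell without overlap.

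The count in OIS-shp53 depended on how the replicates were treated. The replicate block called 15 subunits, where 22.7% of all genes were called in either direction. UQCRC1 was the 1 that rose (log2 fold change 0.13, adjusted p = 0.0379), and the 14 that fell included NDUFA1, NDUFA4, NDUFB9, UQCRB, UQCRFS1 and UQCRH. Replicates 1 to 3 alone gave 17 lower and none higher, where 34% of all genes were called, and replicates 4 and 5 alone gave 1 lower and none higher, where 5.33% were. The median log2 fold change was -0.11 over the 46 subunits and -0.00 over all genes in the pooled fit. Over all genes, the log2 fold change in OIS-shp53 correlated with gene length at 0.172. Whether length had a part in the median of the subunits was not tested. Of the 46 subunits, 13 had opposite signs within replicates 1 to 3 and within replicates 4 and 5.

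In OIS-shCEBPB-shp53, 1 of 46 subunits was called higher and 11 (23.9%) lower, where 17.1% and 16.5% of all genes were. Among the 11 were NDUFA1, NDUFA3, NDUFA4, NDUFB2, NDUFB9, NDUFB10, NDUFS5, NDUFS8, UQCRB and UQCRH, from complexes I and III together with NDUFA4. Of the 13388 genes tested, 1451 fell without overlap between the groups. NDUFA4 had 96.53, 84.64, 93.78, 72.86 and 86.38 CPM in OIS-v-v and 68.61, 63.89, 70.98, 67.57 and 64.77 CPM in the double knock-down, without overlap (log2 fold change -0.38, adjusted p = 0.00175 by edgeR). NDUFB10 had 74.87, 74.94, 80.48, 74.36 and 77.4 CPM (-0.32, adjusted p = 2.4e-04) and NDUFS5 138.9, 129.9, 148.5, 134.2 and 140.2 CPM (-0.31, adjusted p = 0.0025). Neither gene overlapped its OIS-v-v values given above.

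SDHD (hg19 chr11:111957497-111990353), a membrane anchor of complex II, was the subunit that rose in the double knock-down. It had 26.98, 24.57, 26.47, 23.84 and 23.67 CPM in OIS-v-v and 26.85, 30.26, 29.86, 32.12 and 26.51 CPM in OIS-shCEBPB-shp53 (log2 fold change 0.20, adjusted p = 0.0448 by edgeR). Within replicates 1 to 3 the log2 fold change was 0.15 (adjusted p = 0.0762) and within replicates 4 and 5 0.30 (adjusted p = 0.0365). The pooled call was also lost with no filter on low counts and without any 1 of OIS-v-v replicates 2, 4 and 5 and OIS-shCEBPB-shp53 replicates 2, 3 and 4 (adjusted p = 0.0649 to 0.11). The groups overlapped in 2 libraries of the double knock-down, and 16.2% of the exon bases of SDHD overlap other genes, TIMM8B among them. SDHA, SDHB and SDHC had log2 fold changes of -0.06, 0.01 and 0.05 and were not called. In the same comparison 2 of 11 complex IV genes fell and none rose (COX7A2L, -0.32). Of 15 ATP synthase genes 4 fell and 1 rose (ATP5PD, -0.36), and of 23 assembly factors 3 rose and 2 fell (NDUFAF4, -0.64). Among all genes, 17.1% were called higher and 16.5% lower.

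Within replicates 1 to 3 the double knock-down gave 3 subunits higher and 13 lower, where 53.7% of all genes were called in either direction. Within replicates 4 and 5 it gave 1 and 5, where 28.7% were. With library sizes alone, pooled, 7 were called higher and 4 lower. Of all 13388 genes, 3331 were then called higher and 1360 lower, and their median moved by 0.10. NDUFA4 (-0.44 and -0.27), NDUFB10 (-0.33 and -0.30) and NDUFS5 (-0.35 and -0.23) were negative in both subsets. The interaction of the 2 hairpins, which asks whether their joint effect differs from the sum of the single effects on the log2 scale, called none of 46 subunits and 0.0432% of all genes by edgeR. DESeq2 called none of the subunits either, 5 had an unadjusted p under 0.05, and the replicate block called 1, NDUFB9. Of all genes, DESeq2 called 0.216% and the replicate block 0.75%.

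**Figure D4:**
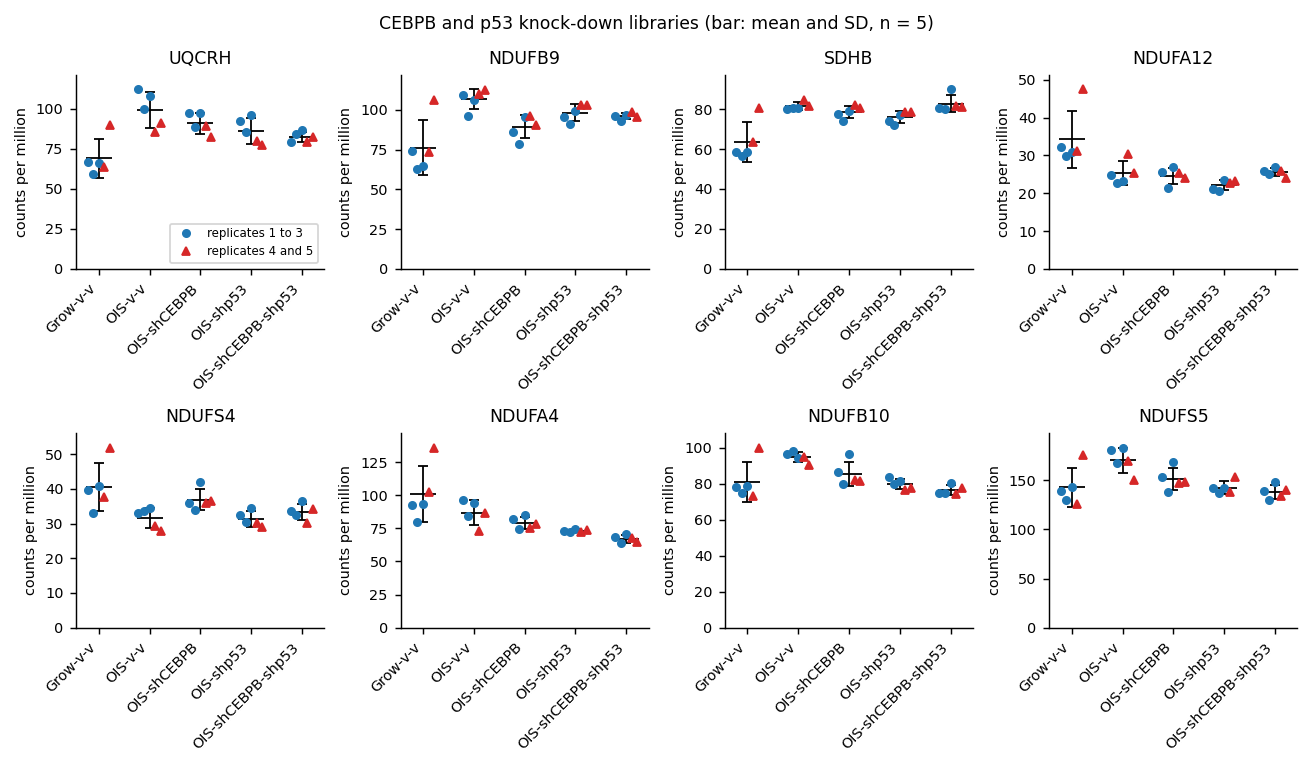
Level in CPM of UQCRH, NDUFB9, SDHB, NDUFA12, NDUFS4, NDUFA4, NDUFB10 and NDUFS5 in each library of the 5 groups of the CEBPB and p53 experiment; circles are replicates 1 to 3, triangles replicates 4 and 5, and the bar is the mean with SD (n = 5). Grow-v-v replicate 5 stands above its group for UQCRH, NDUFB9 and NDUFA12, and the double knock-down lies below OIS-v-v for NDUFA4, NDUFB10 and NDUFS5.

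In H1299 cells the HMGA1 hairpin called 2 of 47 subunits higher and none lower, where 8.65% and 6.93% of all genes were. The median size of the log2 fold change was 0.05 over the subunits and 0.09 over all genes, 6 subunits had an unadjusted p under 0.05, DESeq2 called 2 and none passed the 1.5-fold limit by any of these, while 2.41% of all genes did by edgeR. NDUFB3, a small membrane arm subunit (hg19 chr2:201936156-201950473), had 31.35 to 36.7 CPM in H1299 (median 33.79) and 34.47 to 47.71 CPM in H1299-shA1 (median 39.73), with 5 of 6 knock-down libraries above all controls (log2 fold change 0.26, SE 0.062, adjusted p = 0.00727 by edgeR). NDUFB1 (hg19 chr14:92582466-92588261) had 44.51 to 50.09 CPM (median 47) and 48.04 to 65.89 CPM (median 52.23), a log2 fold change of 0.19 (SE 0.0589, adjusted p = 0.0347 by edgeR). This call was lost with the length offset, with the replicate block and without any 1 of H1299 replicates 1, 2, 5, 6 and 7 and H1299-shA1 replicates 4, 5 and 7 (adjusted p = 0.0524 to 0.073). The groups overlapped for both genes. SDHA (0.07, 95% interval -0.01 to 0.14), SDHB (-0.01, -0.10 to 0.08), SDHC (0.17, -0.07 to 0.41) and SDHD (0.03, -0.09 to 0.15) were not called. Of 11 complex IV genes 1 rose, COX7A2L (0.18), and of 15 ATP synthase genes 1 rose, ATP5MC3 (0.13).

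**Figure D5:**
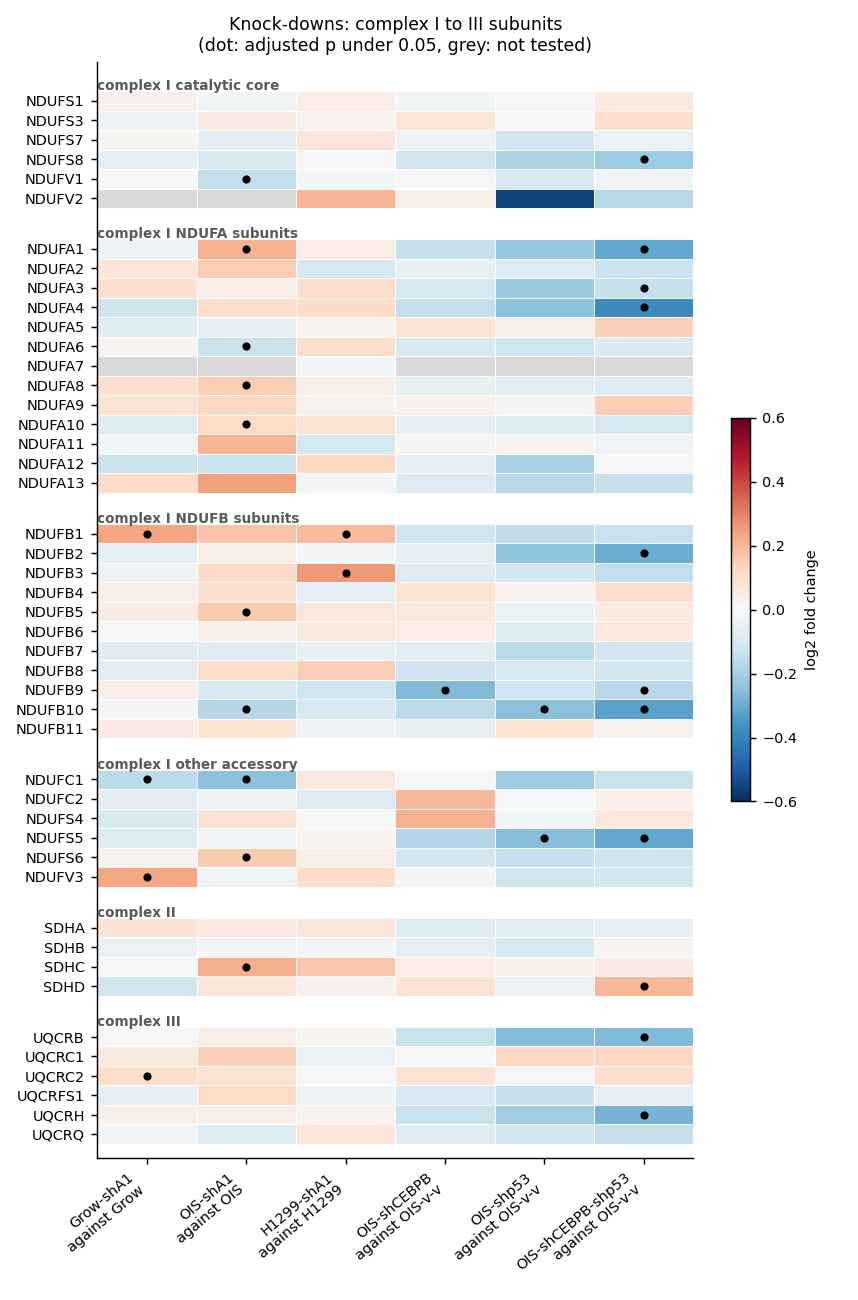
Heat map of the log2 fold change of 46 of the subunit genes in the 6 knock-down comparisons; colour gives the log2 fold change, a dot marks an adjusted p under 0.05 and grey marks a gene not tested in that comparison (NDUFV2 or NDUFA7). Dots are most frequent in the column of OIS-shCEBPB-shp53, with 11 of those drawn, and in that of OIS-shA1 against OIS, with 10.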

How the data were processed

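Polyadenylated RNA of 70 libraries was sequenced by the authors on HiSeq-4000 or NovaSeq-6000 with stranded mRNA kits; which library used which is not given in the sources used here. The authors aligned reads to hg19 with STAR and deposited raw counts per gene from featureCounts (Subread) over GENCODE 19, with reads on several genes left uncounted. Headers show counting without strand for the HMGA1 experiment (fragments) and H1299 (reads). The settings for the CEBPB and p53 experiment are not given in the sources used here. Fold changes and CPM were computed here from these counts.

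Symbols matched 42662 of 44503 gene identifiers. Each comparison was fitted on its own groups over all genes with edgeR 4.0.16 (R 4.3.3): filterByExpr with a minimum count of 10, TMM factors, quasi-likelihood test, Benjamini-Hochberg adjustment and calls at an adjusted p under 0.05. The same fits were tested on simulated data. SE is the log2 fold change divided by the square root of F. For CPM, TMM factors were computed once per table. Fully described are the SDH genes, the 3 largest rises and falls called per comparison, and the highest and lowest levels in Grow. The members and gene lists were chosen with earlier results of these data known. DESeq2 1.42.0, other scaling, filters, a fold limit of 1.5, a gene length offset, replicate blocks and leaving out each library were tried as alternatives, and replicate subsets and a term for them in the CEBPB and p53 experiment were added after seeing the data. Its replicate numbers were tried as pairs from the data and not the labels: in all 5 pairs of each comparison the deviations from group means correlated at 0.13 to 0.674. By comparison, 2 to 4 of the 5 pairs correlated best with their own number. Whether this goes beyond the split of replicates 1 to 3 from replicates 4 and 5 was not tested. Values of a few single genes are not reported here. No 2 replicates agreed within sampling noise (lowest chi-square per degree of freedom 1.725).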

Additional observations from a re-analysis of the deposited data

Results flagged for a closer look

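Among the subunits described in full, 87 groups of 5 to 8 libraries were searched for a library far from the others by Dixon's test, and 13 were found, where chance at 1 in 20 gives about 4.3. OIS replicate 4, the shallowest library, was high for NDUFA1 (39.57 CPM, next 28.46), NDUFA4 (115.4, next 99.97) and NDUFB9 (66.26, next 58.66). Grow-v-v replicate 5 was high for NDUFA12 (47.59 CPM, next 32.12), NDUFB9 (106.0, next 74.06) and UQCRH (89.81, next 66.49). In OIS-shA1, replicate 8 was low for NDUFA12 (17.14 CPM, next 21.13), replicate 5 was high for NDUFB10 (55.58, next 52.25) and replicate 7 was low for NDUFV1 (44.67, next 49.6). H1299-shA1 replicate 7 was high for NDUFB1 (65.89 CPM, next 54.17), Grow replicate 3 was high for NDUFC1 (27.64, next 25.38), Grow replicate 7 was low for NDUFV3 (32.49, next 36.04) and Grow-shA1 replicate 1 was high for SDHB (67.71, next 60.13).

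The effect of the HMGA1 hairpin differed between OIS and Grow, by the interaction term of edgeR's quasi-likelihood test, for NDUFA10 (0.20), NDUFA4 (0.23) and NDUFV3 (-0.25).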

How the results depend on the processing

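Of 937 values of named subunits under alternatives, 840 kept direction and call, 97 kept direction and lost the call and none reversed. These subunits were chosen from the same data as called with the largest changes, and 594 of the values left out 1 library. The absence of reversals therefore says little of the other subunits. Opposite signs in the 2 replicate subsets were found for 21 of 46 subunits in OIS-v-v, 18 in OIS-shCEBPB, 13 in OIS-shp53 and 11 in the double knock-down. For counts of calls that moved by over 1.5 times, the cause was not tested. With a 1.5-fold limit the calls were 4 in OIS against Grow, 3 in OIS-shA1 against Grow-shA1, 1 in OIS-v-v against Grow-v-v and 0 in the other 6 comparisons, with the same counts by DESeq2 and at an unadjusted p under 0.05. Without a filter on low counts there were 2 in Grow-shA1, 5 in OIS-shA1 against OIS and 1 in OIS-shp53. There 15.6%, 19.2% and 1.94% of all genes were called. The interaction of shA1 with OIS had 7 with library sizes alone and 5 with at least 10 counts required, where 31.2% and 30.1% of all genes were called. OIS-shCEBPB had 2 with library sizes alone, 2 with the length offset, 0 in a fit of all groups and 4 with a term for the replicate subset. In the same order, 18.8%, 17.7%, 17.1% and 34.1% of all genes were called. OIS-shp53 had 6 by DESeq2 and 15 with the term for the replicate subset, and H1299-shA1 1 with the length offset. There 8.16%, 26.3% and 15.9% of all genes were called. Replicates 1 to 3 alone gave 32 in OIS-v-v, 8 in OIS-shCEBPB and 17 in OIS-shp53, and replicates 4 and 5 alone 8, 4 and 1, and 6 in the double knock-down.

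Replicate numbers did not pair the samples as a set in the HMGA1 experiment (correlations of -0.281 to 0.263) or in H1299 (-0.237 to 0.402). In H1299, 1 of 6 pairs correlated best with its own number, replicate 7, at 0.402 against at most 0.228 with another number. H1299 replicate 7 was the highest of its group for 23 of 47 subunits, and H1299-shA1 replicate 7 for 28. In the HMGA1 experiment at most 2 of 8 pairs correlated best with their own number. A replicate block gave 26 calls in OIS against Grow, 5 in Grow-shA1 and 3 in OIS-shA1 against OIS. It gave 28 in OIS-shA1 against Grow-shA1, 3 for the interaction and 1 in H1299-shA1. The share of all genes called in these block fits is not given here. Changes in these counts are therefore not shown to be particular to the subunits. In the CEBPB and p53 experiment the block gave 11 calls in OIS-v-v, 7 in OIS-shCEBPB, 15 in OIS-shp53, 13 in the double knock-down and 1 for the interaction. In the same order, 49.7%, 31.9%, 22.7%, 43.4% and 0.75% of all genes were called.

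Leaving out 1 library at a time gave 22 to 27 calls in OIS against Grow and 3 to 5 in Grow-shA1. It gave 6 to 14 in OIS-shA1 against OIS and 26 to 28 in OIS-shA1 against Grow-shA1. The interaction of shA1 with OIS had 3 to 6. There were 8 to 20 in OIS-v-v, 1 to 3 in OIS-shCEBPB and 1 to 4 in OIS-shp53. The double knock-down had 6 to 13, its interaction 0 to 0 and H1299-shA1 1 to 4. The share of all genes called in these fits is not given here, so swings in these counts are not shown to be particular to the subunits. Beyond those named in the text, the libraries that moved a count by over 1.5 times were OIS replicates 3 and 5 (6 in OIS-shA1 against OIS); for the shA1 interaction Grow replicates 3 and 7, OIS replicates 2, 4 and 6 and OIS-shA1 replicate 3 (5 each), and Grow replicate 8 and Grow-shA1 replicate 6 (6 each). For OIS-shCEBPB they were OIS-v-v replicates 4 and 5 (2 each) and OIS-shCEBPB replicate 3 (3), and for OIS-shp53 OIS-v-v replicates 1 and 3 and OIS-shp53 replicates 1 to 4 (1 each) and OIS-v-v replicate 4 (4). For the double knock-down they were OIS-v-v replicate 1 (7) and its own replicates 2 (6) and 4 (7), and in H1299 the control replicates 1, 2, 5, 6 and 7 and H1299-shA1 replicates 4 and 5 (1 each) and 7 (4).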
